A study of Mus musculus with 6 samples.

Results

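The replication-dependent histone genes are the 67 protein-coding genes of the GENCODE M21 annotation, among 55536 genes in the count matrix, whose symbols start with Hist1h, Hist2h, Hist3h or Hist4h. They were chosen by name, not by any value in the data. Their levels were measured by RNA sequencing in perichondrium, the connective tissue sheath around cartilage, taken by microdissection from the limbs of mice on postnatal day 4. The knockout group held 3 libraries, named mut-596, mut-597, mut-795 here after their titles, from Fbn1Scx-/- mice, in which Scx-Cre, a recombinase driven by the scleraxis gene of tendon and ligament precursors, deletes Fbn1, the gene of the microfibril protein fibrillin-1. The title of mut-596 ends in ScxCRE, whereas those of mut-597 and mut-795 end in PC-Koscx. The wild-type (WT) group held another 3 libraries, named WT-596, WT-597, WT-795. Below, the values of a gene are listed in this order, knockout first. The labels name no Cre or floxed allele for the wild-type mice, and do not say what the numbers mean or whether each library came from 1 animal, so p-values reflect only how far these libraries differ, which may be technical.

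Histones H2A, H2B, H3 and H4 form the protein core around which DNA is wrapped, and the linker histone H1 binds where DNA enters and leaves it. The genes studied here supply the bulk of these proteins while DNA is copied, so their mRNA is known to be abundant in S phase and to be degraded when replication stops. Their mRNAs are known to end in a conserved stem-loop, bound by SLBP, in place of a poly(A) tail, although longer polyadenylated forms of some of them exist. Per the labels, the libraries were made with SMART-Seq v4, a chemistry that primes on poly(A) tails, so the counts need not follow the amount of the tail-less mRNA.

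Total counts per library lay between 7209217 and 10316017. Fbn1, the deleted gene, had 76, 45 and 69 counts in the knockout libraries against 1255, 898 and 458 in wild type, and was the single gene past the threshold of 0.05 (log2 fold change -3.48, SE 0.29, adjusted p 1.03e-04 by edgeR's quasi-likelihood test with Benjamini-Hochberg adjustment). Counts of Xist, which coats the inactive X in female cells, were 6221 for mut-596, 4024 for mut-597 and 1 to 4 elsewhere. Ddx3y, a gene of the Y chromosome, was at 0 in these 2 libraries and at 842 to 1641 counts elsewhere. Knockout is therefore compared with wild type at unequal sex, and mut-795 is the one knockout library without Xist. All 8 perichondrium and fibroblast markers were present, with summed levels of 26887 to 30253 CPM (counts scaled to library size, here with TMM factors), and 10 skeletal muscle markers summed to between 2104 and 9322 CPM, highest in WT-597.

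The stem-loop could be read in the annotated transcripts of 46 of the 67 genes, 22 to 59 bases after the stop codon with a median of 32. It is shown for 3 genes in GENCODE M21 transcript sequence on the sense strand, with the 16 bases of the stem-loop in capitals, because its sequence separates H4 from the other classes.
Hist1h1c (H1): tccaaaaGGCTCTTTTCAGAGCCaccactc
Hist1h2ao (H2A): aaaaaaaGGCTCTTTTCAGAGCCatccaca
Hist1h4d (H4): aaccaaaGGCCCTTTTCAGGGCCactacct
The form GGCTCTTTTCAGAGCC was found in 26 genes (3 H1, 10 H2A, 8 H2B and 5 H3) and in no H4 gene. The form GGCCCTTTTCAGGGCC, with another base pair in the stem, was found in 7 genes, all of class H4. The remaining 13 genes with a stem-loop carried 6 further forms.

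The H2A genes of the Hist1 cluster on chromosome 13 are near copies of each other, and 1 difference inside their coding sequence recurs in the results below. Bases 106 to 245 of the coding sequence, counted from 1 at the A of the start codon, are shown for 5 genes from GENCODE M21, 5′ to 3′ on the sense strand. Capitals mark base 150 and every base that differs from Hist1h2an.
Hist1h2an: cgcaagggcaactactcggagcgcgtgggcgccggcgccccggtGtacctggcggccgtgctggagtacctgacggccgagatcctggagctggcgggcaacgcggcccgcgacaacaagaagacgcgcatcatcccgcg
Hist1h2ae: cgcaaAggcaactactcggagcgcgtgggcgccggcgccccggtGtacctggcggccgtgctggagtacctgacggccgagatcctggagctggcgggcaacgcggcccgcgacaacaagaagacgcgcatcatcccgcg
Hist1h2ak: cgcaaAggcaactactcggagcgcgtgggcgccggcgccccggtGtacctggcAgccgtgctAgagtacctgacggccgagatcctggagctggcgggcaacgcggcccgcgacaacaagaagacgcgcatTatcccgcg
Hist1h2ao: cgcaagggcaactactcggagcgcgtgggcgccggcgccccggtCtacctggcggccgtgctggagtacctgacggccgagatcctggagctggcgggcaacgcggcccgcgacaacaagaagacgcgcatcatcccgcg
Hist1h2ac: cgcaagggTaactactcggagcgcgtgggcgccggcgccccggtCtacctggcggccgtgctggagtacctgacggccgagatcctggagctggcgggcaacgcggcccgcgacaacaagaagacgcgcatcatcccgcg
The stretch of Hist1h2an (GRCm38 chr13:21786974-21787113, minus strand, coding exon) is identical in Hist1h2ab, Hist1h2ad, Hist1h2af, Hist1h2ah and Hist1h2ai. That of Hist1h2ao (chr13:21810572-21810711, plus strand, coding exon) is identical in Hist1h2ag and Hist1h2ap and carries the substitution G150C relative to Hist1h2an, as does Hist1h2ac. Whole coding sequences of 393 bases from the Hist1 H2A genes were between 96.2% and 100% identical to each other. How the study counted reads that match several copies is not stated, so such genes may share reads. Hist1h2ao and Hist1h2ap differed by at most 5 counts in any library, at 17691 and 17676 counts in total, so the values of single H2A genes are uncertain and sums over the class may hold the same read more than once.

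Most histone counts came from H2A genes. Histone genes took between 0.148% and 0.187% of the counts of a library, and 81.8% of their counts lay in H2A genes, against 6.39% in H4, 4.75% in H2B, 4.32% in H1 and 2.75% in H3. Per kilobase of exon, Hist1h2ao and Hist1h2ap had the highest means over the 6 libraries, at 711 and 707 CPM per kb, and Hist1h2ag, Hist1h2ah and Hist1h2ad followed with 296, 183 and 180. Outside H2A the highest were the H4 gene Hist1h4d with 62.4, the H2B gene Hist1h2bc with 35.5, the H3 gene Hist1h3i with 30.5 and the H1 gene Hist1h1c with 24.4 CPM per kb. By cluster, 50 of 54 Hist1 genes (chromosome 13), 4 of 10 Hist2 genes (chromosome 3), 1 of 2 Hist3 genes (chromosome 11) and 0 of 1 Hist4 gene (chromosome 6) passed the filter on low counts. The 12 genes under the filter had at most 54 counts over all libraries. Of these, Hist2h2aa1 and Hist2h3c1 had 0 counts in every library, which allows at most 0.291 to 0.416 CPM by counting error alone, and both overlap the non-coding gene Gm20634 on the same strand. The coding sequence of Hist2h2aa1 is 100% identical to that of Hist2h2aa2, which had 850 counts in all. Since the treatment of reads that match several genes is not stated, 0 counts need not mean that either gene was silent. Of 3 histone genes known for expression in testis, Hist1h1t and Hist1h2aa had 1 and 2 counts in all, whereas Hist1h2ba had 6, 12 and 27 counts in the knockout and 40, 33 and 17 in the wild-type libraries.

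Summed over all members of a class, the levels of knockout and wild-type libraries overlapped in each of the 5 classes. H2A genes summed to 1643, 1576 and 1354 CPM in the knockout libraries, and to 966, 1373 and 1458 CPM in wild type. The lowest H2A sum was that of WT-596, and mut-795 lay within the wild-type range. H2B genes summed to 56.7, 75.9 and 65.3 CPM in the knockout and to 91.2, 104.8 and 69.4 CPM in the wild-type libraries, so that mut-597 alone of the knockout libraries exceeded the lowest wild-type library. The means were 1524 ± 151 against 1266 ± 263 CPM for H2A (log2 ratio 0.27), and 66.0 ± 9.64 against 88.5 ± 17.9 CPM for H2B (log2 ratio -0.42; SD, n = 3 each). Without WT-596 the H2A log2 ratio was 0.10. H1 had 66.5 ± 6.05 against 75.8 ± 16.9 CPM (-0.19), H3 had 41.8 ± 13.5 against 49.6 ± 5.71 CPM (-0.25) and H4 had 108 ± 3.04 against 103 ± 16.5 CPM (0.07). In bulk tissue, fewer cells in S phase and less histone RNA per cell cannot be told apart.

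**Figure D1:**
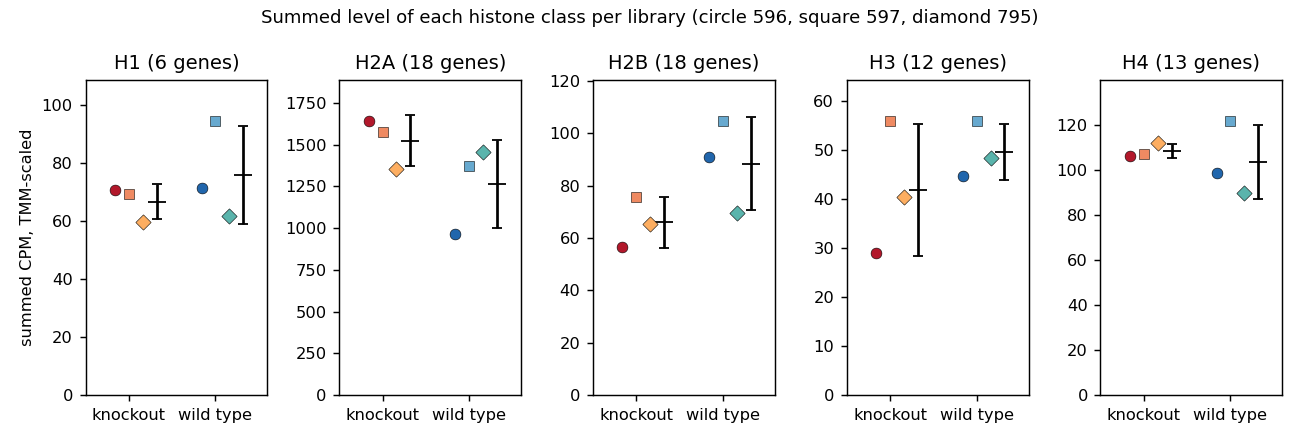
Summed CPM of all members of each histone class (y axis, scaled by TMM and starting at 0) in each library, with the group mean and SD as a black bar beside the 3 points. In H2A the knockout points lie between 1354 and 1643 CPM and the wild-type points between 966 and 1458 CPM, and the groups overlap in all 5 panels.

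No histone gene passed the threshold between knockout and wild type. The filter left 55 of the 67 genes among 15712 genes tested, and edgeR's smallest adjusted p among them was 0.459; over all genes 0.00636% were called. DESeq2 and limma-voom also called 0 histone genes. With no filter on low counts, which tested 31958 genes and called 0.845% of them, edgeR called 4 (Hist1h2af, Hist1h2ah, Hist1h2ai and Hist1h2an, all higher). Without WT-795, where 9.08% of all genes were called, it called 3: Hist1h2ai was higher and Hist2h2aa2 and Hist1h2bg were lower. At an unadjusted p under 0.05, 6 histone genes were higher in the knockout, all of class H2A, beside 3.37% of all genes tested, and 3 were lower, beside 7.12%. Groups did not overlap for 1 gene with the knockout above (Hist1h4d; 5.66% of all genes) and 2 with it below (Hist1h2bj and Hist1h2bh; 6.22% of all genes). The fitted log2 fold change lay below 0 for 43 of the 55, beside 49.1% of all genes, and its median was -0.21, beside 0.01 over all genes. The 12 values above 0 belonged to 10 H2A and 2 H4 genes. Outside H2A, 38 of 40 genes had values below 0, with a median of -0.25.

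These shares moved with GC content and with 1 library. Median GC content of the longest annotated transcript was 57.9% over all 67 histone genes, tested or not, and 49.1% over all genes tested. Over 15701 genes the fold change ran against GC content (Spearman's rho -0.62, a description across genes that share the same libraries). With each library's GC trend removed by a fitted curve, 23 of the 55 values lay below 0 and the median was 0.11, so the direction of the median reversed. The highest level of all 6 libraries was that of WT-597 in 31 of the 55 genes. Without WT-597, 29 of 56 genes tested lay below 0 and the median was -0.004. The part of muscle markers, highest in the same library, was not tested.

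**Figure D2:**
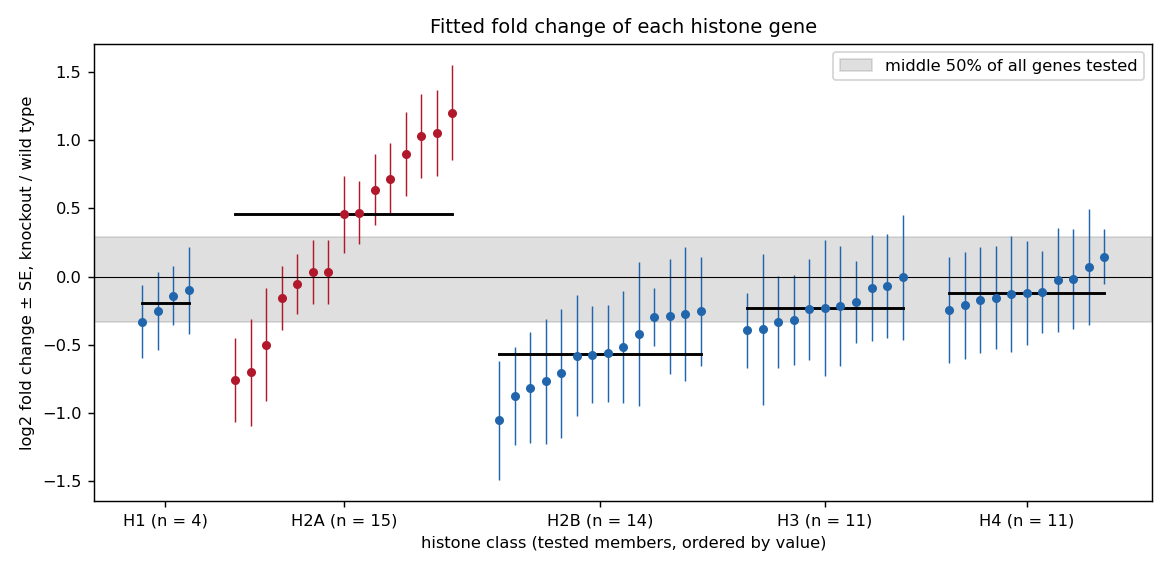
Fitted log2 fold change of knockout over wild type (y axis, with SE) for each of the 55 tested histone genes, grouped by class and ordered within it, with the class median as a black line. H2A genes run from -0.76 to 1.20 with a median of 0.46, whereas all 14 H2B, 11 H3 and 4 H1 genes lie below 0 (11, 4 and 2 of them with the GC trend removed); the grey band holds the middle of all genes tested.

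The highest H2A values were those of the libraries with Xist in many of these genes. In 7 of the 15 tested H2A genes, Hist1h2ab, Hist1h2ad, Hist1h2ae, Hist1h2af, Hist1h2ah, Hist1h2ai and Hist1h2an, both libraries with Xist lay above the other 4, and in all 7 mut-795 lay within the wild-type range. Over all histone genes tested this order was found in 8 (the other being Hist1h4d), beside 8.28% of all genes tested; the 7 were singled out after their values were seen, so they carry no test. Both libraries with Xist lay below the other 4 in 6 histone genes, 5 of them of class H2B, beside 7.62% of all genes. Hist1h2an had 99.0, 96.6 and 33.0 CPM in the knockout libraries, and 23.7, 41.5 and 33.9 CPM in wild type. Its fold change was 2.30 (log2 1.20, SE 0.35), with an edgeR adjusted p of 0.459. Hist1h2ai had 117, 113 and 47.6 CPM in the knockout and 36.3, 44.8 and 54.5 CPM in the wild-type libraries (log2 fold change 1.03, SE 0.31). Hist1h2af had 107, 106 and 42.9 CPM against 31.2, 49.4 and 42.5 CPM (1.05, SE 0.31). In each of these 3 genes a gap lay between mut-596 and mut-597 on one side and the remaining libraries on the other.

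Hist1h2ah, at 120, 119 and 50.8 CPM against 38.0, 58.3 and 58.6 CPM, and Hist1h2ad, at 154, 147 and 82.9 CPM against 61.5, 82.7 and 89.2 CPM, had the same order with log2 fold changes of 0.90 and 0.72. Hist1h2ab had 76.2, 70.5 and 42.9 CPM against 33.9, 36.8 and 51.1 CPM (0.64), and Hist1h2ae had 72.6, 64.5 and 50.7 CPM against 39.1, 41.5 and 55.2 CPM (0.47). Over the 7 genes the mean of mut-596 and mut-597 was between 1.47 and 2.96 times the mean of the other 4 libraries. With Xist as a covariate, the log2 fold change of knockout over wild type was -0.00057 for Hist1h2an, 0.08 for Hist1h2ai, 0.06 for Hist1h2af and -0.02 for Hist1h2ah, and the H2A median was 0.08 in place of 0.46. Because wild type has no library with Xist, that value rests on mut-795. The 4 Schwann cell markers also summed higher in mut-596 and mut-597, at 61.0 and 53.4 CPM against 7.76 to 24.7 CPM elsewhere. No marker was at 0 in all libraries, and 3 had a log2 fold change of knockout over wild type above 0 and 1 below. The part of these markers in the H2A values was not tested. The 7 genes had a GC content of 54.1% to 70.0%, and with the GC trend removed their log2 fold changes were 0.70 to 1.56. GC content was taken from the longest annotated transcript, so it depends on how much of a gene is annotated. Hist1h2ai had 70.0% over 393 bases of exon, and Hist1h2ad, 98.7% identical to it in coding sequence, had 59.4% over 572. The size of the correction differs accordingly. Among the tested Hist1 H2A genes without this order the same correction gave 0.85 for Hist1h2ak, above the lowest of the 7. It gave 0.45 for Hist1h2ao, 0.44 for Hist1h2ap, 0.26 for Hist1h2ag and -0.17 for Hist1h2ac.

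The genes of this order had the same base at coding position 150, which some genes without the order also have. Position 150 was picked after the order was seen, by a search of every coding position for a base shared by the 7. Of these positions it was the one where the most other Hist1 H2A genes had a different base, so the match carries no test. All 7 carry G there, and 6 of them have the identical stretch printed above under Hist1h2an, while Hist1h2ae differs from it in 1 base. Of the 5 tested Hist1 H2A genes without the order, Hist1h2ac, Hist1h2ag, Hist1h2ao and Hist1h2ap carry C (G150C). Hist1h2ao had 342, 326 and 368 CPM in the knockout and 250, 364 and 398 CPM in the wild-type libraries (log2 fold change 0.03, SE 0.23), with mut-596 and mut-597 inside the wild-type range. Hist1h2ag had 123, 117 and 167 CPM against 116, 166 and 173 CPM (-0.16), and Hist1h2ac had 68.5, 60.7 and 71.7 CPM against 54.8, 74.9 and 79.1 CPM (-0.05). Hist1h2ak, which carries G at position 150 but differs from Hist1h2an in 4 bases of the stretch, had 10.2, 12.0 and 10.7 CPM against 5.60, 10.4 and 7.90 CPM (0.46) and did not separate the libraries with Xist. A piece of 50 bases of the stretch occurs in the annotated transcripts of 25 genes, 16 of them histone genes studied here, and of 0 genes on chromosome X or Y. Outside the Hist1 cluster, Hist2h2aa2, Hist2h2ac and Hist3h2a had log2 fold changes of -0.76, -0.70 and -0.50. Hist3h2a, which also carries G at position 150 and differs from Hist1h2an in 21 bases of the stretch, lacks the order, as do Hist2h2ab and Hist1h2aa, G carriers under the filter. The 8 tested H2A genes without the order thus ran from -0.76 to 0.46, with 5 below 0.

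**Figure D3:**
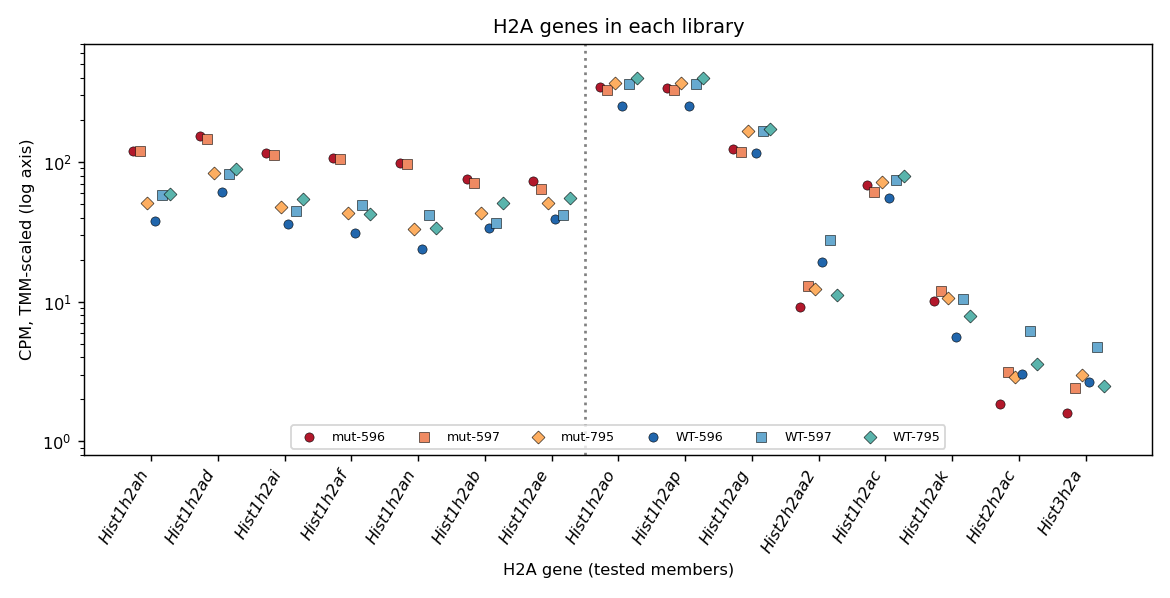
CPM of the 15 tested H2A genes (log y axis) in each library, with the 7 genes whose mut-596 and mut-597 values exceed the other 4 libraries left of the dotted line. To the left, mut-795 sits among the wild-type libraries; to the right, Hist1h2ao and Hist1h2ap lie between 250 and 398 CPM with no such gap.

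The gap was widest in sequence annotated antisense to the H2A coding region. GENCODE M21 lists 19 microRNA genes of 129 to 144 bases on the opposite strand inside H2A genes and pseudogenes, and since the transposase libraries do not mark strand, their counts cannot be told apart from those of the H2A strand. Gm44346 (chr13:21786875-21787015, plus strand, coding bases 204 to 344 of Hist1h2an) had 416, 341 and 24 counts in the knockout libraries and 18, 28 and 19 in wild type. Gm44297 (chr13:23534114-23534254, minus strand, the same coding bases of Hist1h2af) had 412, 337 and 23 counts against 19, 24 and 19. In both windows the libraries with Xist stood far above the other 4, at 22.4 and 23.1 times their mean CPM. Their log2 fold changes of knockout over wild type were 3.95 (SE 0.75) and 4.00 (SE 0.76), each with an edgeR adjusted p of 0.459. Gm44492, the third window starting at coding base 204, lies in Hist2h2ac on chromosome 3 and had a ratio of 1.05.

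The windows that start at coding base 246 differed among themselves. In the 10 of them that lie in histone genes studied here and passed the filter, mut-596 and mut-597 had 0.970 to 1.62 times the mean CPM of the other 4 libraries. Gm44367 in Hist1h2ai, a gene with a ratio of 2.51 over its whole length, had 236, 214 and 216 counts against 142, 248 and 167, a ratio of 1.54 after scaling. Gm19658 in Hist1h2ao had 1079, 854 and 1107 counts against 811, 1361 and 935. The pseudogene Hist1h2aj of the same cluster, which is not among the 67 genes, had 71.8, 72.4 and 8.85 CPM against 6.93, 12.3 and 9.42 CPM (log2 fold change 2.41, SE 0.54, edgeR adjusted p 0.459). Its window Gm44357 also starts at coding base 246 and had 70, 50 and 6 counts against 3, 5 and 4, a ratio of 17.4. Hist1h2aj thus showed the same order of libraries as the 7 H2A genes, at a larger ratio.

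**Figure D4:**
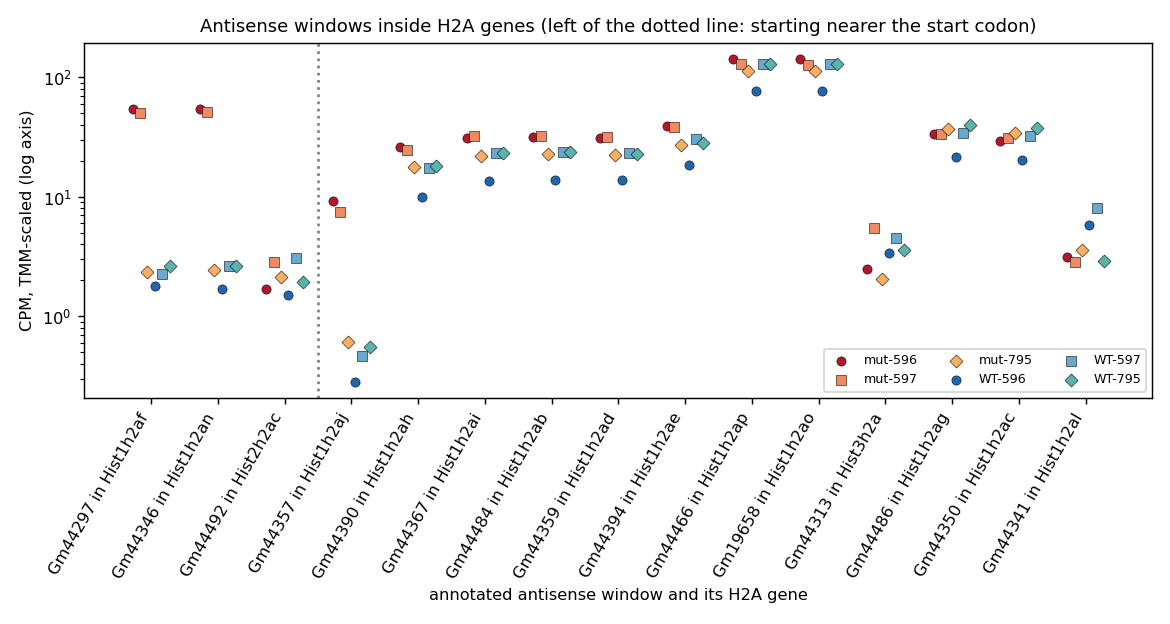
CPM (log y axis) in each library of annotated windows antisense to H2A genes with at least 30 counts in all, with windows that start at coding base 204 left of the dotted line and those from base 246 to the right. Gm44297 and Gm44346 lie above the other 4 libraries by 23.1 and 22.4 times in mut-596 and mut-597, whereas most windows on the right stay within 0.970 to 1.62 times; Gm44357 in the pseudogene Hist1h2aj has a ratio of 17.4.

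The tested H2B genes had fitted values below 0. All 14 tested H2B genes had a log2 fold change below 0, from -1.05 to -0.26 with a median of -0.57, and none passed the threshold. Of the 4 under the filter, Hist2h2be and Hist3h2ba had higher means in the knockout, at 0.772 against 0.705 CPM and 0.207 against 0.126 CPM, and with no filter 16 of 18 lay below 0. Hist1h2bh had 1.19, 1.05 and 1.85 CPM in the knockout libraries, against 3.80, 2.74 and 2.08 CPM in wild type, with no overlap (log2 fold change -1.05, SE 0.44, edgeR adjusted p 0.459). Hist1h2bj had 1.19, 1.95 and 2.78 CPM against 3.89, 3.59 and 3.05 CPM, also with no overlap (-0.81, SE 0.41). These rest on 7 to 41 counts per library. Hist1h2bg had 2.64, 3.45 and 3.81 CPM against 6.27, 8.21 and 3.60 CPM (-0.88, SE 0.36), where WT-795 lay inside the knockout range. Hist1h2bc, the H2B gene with the highest level per kb, had 34.2, 42.1 and 34.2 CPM against 45.1, 51.0 and 39.5 CPM (-0.30, SE 0.21), with mut-597 above WT-795. In all 14 genes WT-795 was the lowest wild-type library, and in 10 WT-597 was the highest of all. With the GC trend removed 11 of 14 stayed below 0 with a median of -0.36. Without WT-597 it was 11 of 14 with a median of -0.40. The 7 tested genes not counted as near-identical copies had a median of -0.52. A gene was counted as such a copy if other genes together held at least 50% of its 50-base stretches.

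Many H2A genes lie head to head with an H2B gene and are known to share its promoter region. In 12 such pairs the annotated starts were 176 to 306 bases apart, and in the 10 with both genes tested the H2A value lay above the H2B value every time. The pair Hist1h2an and Hist1h2bp, with starts 243 bases apart, had log2 fold changes of 1.20 and -0.52. The pair Hist1h2ah and Hist1h2bk had 0.90 and -0.71. Pairs whose H2A gene lacks the order described above differed less, such as Hist1h2ac and Hist1h2bc with -0.05 and -0.30. The order was defined by high H2A values in mut-596 and mut-597, so this follows in part from that choice. In Hist1h2bp the libraries with Xist, at 1.45 and 2.25 CPM, lay on both sides of mut-795 at 1.75 CPM. The difference within a pair was not tested. In RefSeq promoter sequences of GRCm38.p6, from 250 bases before to 50 after the start, CCAAT on either strand was present in 85.7% of 63 promoters of 62 histone genes and 37.4% of all 32851 promoters, and TATAAA on either strand in 55.6% and 13.6%.

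**Figure D5:**
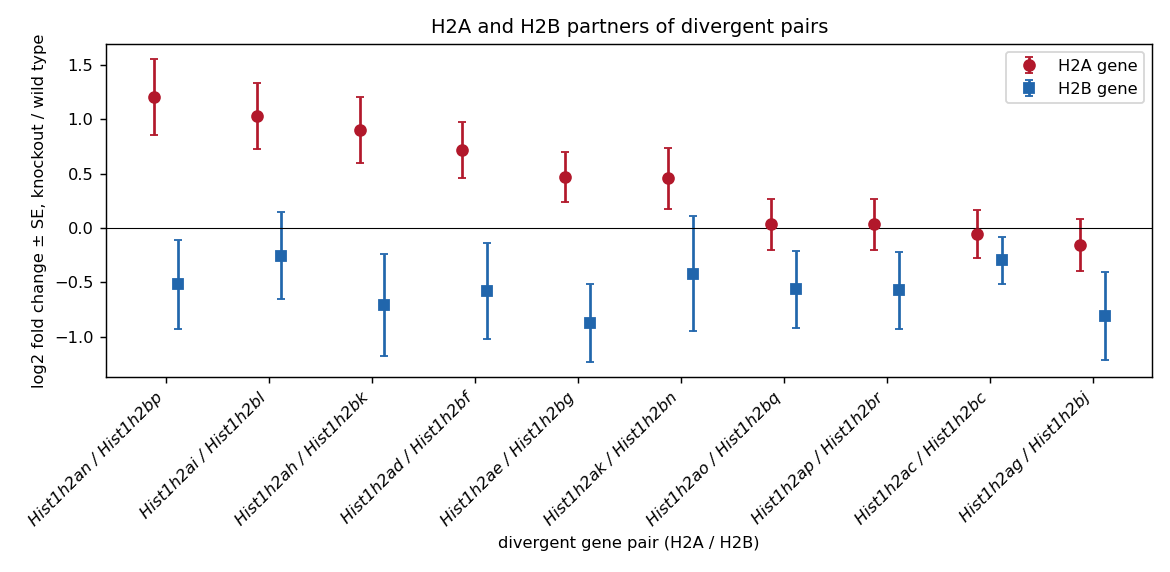
Log2 fold change of knockout over wild type with SE (y axis) for the H2A gene (circle) and the H2B gene (square) of the 10 divergent pairs with both genes tested. The H2A point lies above the H2B point in each pair, from 1.20 against -0.52 in the first pair to -0.16 against -0.81 in the last.

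The H3 and H4 genes, which encode the partners of the central tetramer, overlapped between groups in all but 1 tested gene. All 11 tested H3 genes had values below 0, from -0.39 to -0.01 with a median of -0.23. Hist1h3i, the highest of them per kb, had 7.0, 13.6 and 11.8 CPM in the knockout and 13.5, 13.3 and 15.9 CPM in the wild-type libraries (-0.39, SE 0.28), where mut-596 was lowest. Hist1h3h had 3.30, 6.75 and 4.22 CPM against 5.13, 6.60 and 5.96 CPM (-0.32, SE 0.33), and mut-597 was the highest of all. With the GC trend removed 4 of the 11 remained below 0 (median 0.10). Hist1h3h was among those that turned, at 0.06. Of the 11 tested H4 genes 9 were below 0 with a median of -0.12, and in 10 of the 11 WT-597 was the highest library. Hist1h4d, which carries the H4 form of the stem-loop shown above, had 72.8, 78.3 and 72.6 CPM against 67.6, 72.0 and 62.6 CPM. Its groups did not overlap, yet the difference was small (0.14, SE 0.20, edgeR adjusted p 0.754). Hist1h4h had 4.36, 3.45 and 5.25 CPM against 3.42, 8.02 and 3.19 CPM (-0.17, SE 0.39), with WT-597 apart from the rest. Without WT-597, 2 of 11 H4 genes were below 0 and the median was 0.17, and with the GC trend removed it was likewise 2 of 11 (median 0.26).

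The linker histone genes also overlapped between groups. Hist1h1c had 35.3, 39.3 and 34.4 CPM in the knockout and 37.8, 48.2 and 33.7 CPM in the wild-type libraries (-0.14, SE 0.22). Hist1h1e had 20.1, 16.6 and 14.0 CPM against 19.7, 28.8 and 15.1 CPM (-0.33, SE 0.27), and Hist1h1b had 8.58, 7.65 and 7.10 CPM against 8.45, 12.3 and 6.93 CPM (-0.25, SE 0.29). In each of the 3 genes WT-597 was highest and WT-795 lay near the knockout libraries. Hist1h1d had a value of -0.10. All 4 tested H1 genes were below 0, and 2 of them with the GC trend removed.

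The genes were also grouped by the annotated 3′ end. In 30 genes an annotated transcript ran over 50 bases past the stem-loop or had more than 1 exon; of these 25 were tested, with a median log2 fold change of -0.21. The 19 genes whose transcripts stop near the stem-loop had 17 tested and a median of -0.17. The 18 genes with neither had 13 tested and a median of -0.25, but ranged up to 1.20, and 4 of the 7 H2A genes with both Xist libraries on top (Hist1h2af, Hist1h2ah, Hist1h2ai and Hist1h2an) are among them. The annotated transcripts of these 4 end 0 to 2 bases after the stop codon. A stem-loop could therefore not be read there, and its absence from these genes is not shown. Which form the reads came from is not shown by counts per gene.

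Genes that act on histone mRNA held no call. Of 18 genes of histone gene transcription and 3′ end processing 17 were tested, 8 above and 9 below 0, with a median of -0.01; edgeR, DESeq2 and limma-voom each called 0, and 0 had an unadjusted p under 0.05 by edgeR. Slbp, the stem-loop binding protein, had 37.0, 41.8 and 31.1 CPM in the knockout libraries, against 29.7, 25.3 and 39.8 CPM in wild type (0.21, SE 0.23). Npat, the coactivator of histone transcription in S phase, had 24.0, 18.4 and 20.1 CPM against 15.8, 14.4 and 27.4 CPM (0.13, SE 0.27; -0.21 with the GC trend removed). In both genes WT-795 was the highest or next to highest library and the groups overlapped. Mif4gd, which links SLBP to translation, had a value of -0.72 (SE 0.36), and of -0.43 with the GC trend removed.

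In lists of replication, division and chaperone genes the same 3 tools called 0 members. Over all genes tested 3.37% were higher and 7.12% lower at an unadjusted p under 0.05 by edgeR, and 49.1% lay below 0. Of 49 genes of DNA replication and S phase, 25 lay above and 24 below 0 with a median of 0.02, and 1 in each direction had an unadjusted p under 0.05 by edgeR. These were Rpa3 (0.59, and 0.08 with the GC trend removed) and Pold1 (-0.84, and -0.39). Groups did not overlap for 1 of the 49 with the knockout above and 5 with it below, beside 5.66% and 6.22% of all genes. Pcna, the sliding clamp of DNA polymerases, had 35.3, 37.6 and 43.8 CPM against 41.1, 54.2 and 36.2 CPM (-0.17, SE 0.22). Of 30 genes of G2 and mitosis 21 lay above and 9 below 0, with a median of 0.19, and 2 higher and 1 lower had an unadjusted p under 0.05. The higher were Knl1 (0.72) and Nusap1 (0.57), and the lower was Aurka (-0.88). With the GC trend removed their values were 0.37, 0.26 and -0.74. Mki67, a marker of cycling cells, had 102, 67.3 and 55.5 CPM against 34.9, 47.0 and 86.2 CPM (0.43, SE 0.32). Mki67 was thus highest in mut-596 and next highest in WT-795, and the groups overlapped. Of 20 histone chaperones 13 lay above and 7 below 0 (median 0.05), and 1 had an unadjusted p under 0.05. This was Cabin1, a subunit of the HIRA complex, with a log2 fold change of -0.71 (SE 0.26) and no overlap. With the GC trend removed its value was -0.36.

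Histone genes expressed outside S phase also held no call. Of 11 replication-independent histone genes 3 lay above and 8 below 0 (49.1% of all genes lay below), with a median of -0.31; the 3 tools called 0, and 3 had an unadjusted p under 0.05 by edgeR, all lower, beside 7.12% of all genes. H2afz, which encodes H2A.Z, had 318, 338 and 454 CPM in the knockout and 310, 290 and 358 CPM in the wild-type libraries (0.22, SE 0.23), and H3f3b, a gene of H3.3, had 517, 522 and 545 CPM against 459, 402 and 528 CPM (0.19, SE 0.22; -0.04 with the GC trend removed). For both genes WT-795 lay within the knockout range. H2afj had 11.5, 14.1 and 14.9 CPM against 22.1, 29.7 and 16.4 CPM, without overlap (-0.75, SE 0.26, edgeR adjusted p 0.459). H1fx, a linker histone gene, had 2.38, 1.95 and 2.67 CPM against 5.98, 11.0 and 1.52 CPM (-1.41, SE 0.52), where WT-795 was the lowest library of all. With the GC trend removed H2afj was at -0.46, H1fx at -1.01 and H2afx, at -0.74 before, at -0.23.

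The authors' deposited table of differential genes had 1643 entries, beside 55536 genes in the count matrix and 15712 tested here. The authors' deposited table held 8 of the 67 histone genes, 55 of which were tested here. DESeq2 as run here called 4 genes in all and 0 histone genes. In the authors' deposited table Hist1h2an, Hist1h2af, Hist1h2ai, Hist1h2ah, Hist1h2ad and Hist1h2ab had log2 fold changes of 1.20, 1.05, 1.02, 0.89, 0.71 and 0.63. The authors' deposited table gave Hist2h2aa2 and Hist1h2bg as lower, at -0.76 and -0.88. These 8 genes are among the 9 histone genes with an unadjusted p under 0.05 by edgeR here, beside 10.5% of all genes (1648 of 15712), and none of the 9 passed after adjustment.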

How the data were processed

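The authors deposited whole-number counts per gene; the submitters' processing notes name GRCm38.p6 and DESeq2. The counter and its settings for strand and multiple matches are not named by any label or header. A table deposited by the authors holds log2 fold changes. Members, gene lists and the rule for named genes (the highest 4 per class, the 5 smallest p in each direction, 4 per other list, and fixed genes) were chosen with earlier results of these data known. Counts were tested with edgeR 4.0.16 in R 4.3.3 (glmQLFit, TMM, filterByExpr by group, two-sided, Benjamini-Hochberg over 15712 genes, threshold 0.05, no covariate), after the procedure was tested on simulated data. SE is the log2 fold change over the square root of F. CPM is scaled by TMM. Alternatives were RLE and upper-quartile scaling, no filter, a filter at a mean of 2 CPM, DESeq2 1.42.0, limma-voom 3.58.1 with and without sample weights, a GC correction (loess), the replicate block, an Xist covariate, each library left out, and members without near-identical copies (at least 50% of 50-base stretches shared). Stem-loops were searched in GENCODE M21 transcripts up to 500 bases after the stop codon with at most 1 mismatch. No label names molecular identifiers, so counts may include PCR copies. Proteins and genomic sequence were not used here.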

Additional observations from a re-analysis of the deposited data

How the results depend on the processing

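With other scalings, the stricter filter and limma-voom with and without weights, 1 gene was called over all genes and 0 among histone genes, as in the main test. With no filter 270 genes and 4 histone genes were called, and with DESeq2 4 genes and 0 histone genes. Leaving out 1 library gave 1 to 1517 genes, the latter without WT-795, and 0 to 3 histone genes; the cause was not tested. The Xist covariate left 0 calls; Fbn1 was no longer past the threshold there (adjusted p 0.104 by edgeR), while its log2 fold change was -3.65 against -3.48 without the covariate.

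The median log2 fold change of histone genes was 0.11 with the GC correction, and the H2A log2 ratio of summed levels 0.63. Leaving out 1 library moved that median between -0.33 and -0.0041 and the summed log2 ratios between -0.33 and -0.020 (H1), 0.10 and 0.37 (H2A), -0.59 and -0.31 (H2B), -0.53 and -0.061 (H3) and -0.039 and 0.18 (H4). Of the named genes, none of whose directions rested on a call except that of Fbn1, these log2 fold changes changed sign. With the GC correction they were Npat -0.21, H3f3b -0.042, Hist1h2bl 0.23, Hist1h3h 0.063, Hist1h4k 0.48, Hist1h1b 0.095, Hist1h4i 0.11, Hist1h2ag 0.26, Hist1h4h 0.28, Hist1h3g 0.18, Hist1h1c 0.17, Hist1h3b 0.10. With the Xist covariate they were Slbp -0.021, Mki67 -0.0084, Hist1h4k 0.22, Hist1h2an -0.00057, Hist1h2ah -0.022, Hist1h2ag 0.14, Hist1h4h 0.092. Over the libraries left out in turn the ranges were Npat -0.057 to 0.45, Hist1h2bl -0.41 to 0.0095, Hist1h4k -0.22 to 0.26, Hist1h2ao -0.15 to 0.16, Hist1h2ap -0.15 to 0.16, Hist1h4i -0.27 to 0.10, Hist1h4h -0.39 to 0.38. With limma-voom it was Hist1h4k 0.0056. Their cause was not tested.

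Correlations of the deviations from the group mean were -0.18, 0.24 and -0.20 for the pairs of equal number. For pairs of unequal number they ran from -0.29 to 0.38. With 3 libraries in each group, these values cannot decide whether the shared numbers pair the libraries. The replicate block gave 1 gene, 0 histone genes and a median of -0.19, and turned Hist1h4k to 0.0092. The replicate block with the GC correction gave 4 genes and 0 histone genes, a median of 0.11 and an H2A ratio of 0.68, with Npat -0.20, H3f3b -0.042, Hist1h2bl 0.24, Hist1h3h 0.048, Hist1h4k 0.45, Hist1h1b 0.11, Hist1h4i 0.11, Hist1h2ag 0.29, Hist1h4h 0.32, Hist1h3g 0.18, Hist1h1c 0.17, Hist1h3b 0.10.

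The histone genes not tested had at most 54 counts in all, and near-identical copies limit single H2A values. Without such copies the histone median was -0.21 over 26 genes, and the H2A median was -0.28 over 4 genes in place of 0.46 over 15.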
